A study of Mus musculus with 12 samples.

Results

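H3K27ac, the acetylation of lysine 27 on histone H3, was set against mRNA level in NIH3T3 cells, gene by gene. The members were the 2 NIH3T3 libraries of the series that carry these readouts, 1 H3K27ac ChIP-seq and 1 RNA-seq library of the 12 samples. Each protein-coding gene was given the TPM (a relative transcript abundance corrected for transcript length) of its highest protein-coding transcript and was looked up in the H3K27ac peak list around its start. This left 21892 genes with coordinates in the mouse genome mm10, of which 7823 were listed at TPM 0. The other 14069 genes fell into quartiles with limits at a TPM of 1.03, 7.78 and 23.3.

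The acetyl mark is laid down by the coactivators p300 and CBP and removed by histone deacetylases, and it is read by bromodomain proteins. It is found on the nucleosomes that flank active promoters and enhancers, and so it is widely used to map both. Most mouse promoters of broadly used genes lie in CpG islands, stretches in which the dinucleotide CG has not been lost, while many tissue-restricted promoters are poor in CG.

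NIH3T3 is a fibroblast line established from mouse embryos. In the series it was grown without further treatment in the same serum- and LIF-containing medium as E14TG2a mouse embryonic stem cells (mESCs), which carry the most similar pair of libraries and are used here only for comparison. The Ctr9-GFP knock-in line of NIH3T3 cells was used for the Ctr9 peaks quoted below, Ctr9 being a core subunit of the Paf1 elongation complex. Every library was a single run, so no value has a replicate, no test between conditions was possible, and each interval (95%, exact Clopper-Pearson) covers counting error over genes only. The RNA-seq libraries held 28849497 estimated counts in NIH3T3 cells and 26400407 in mESCs. For an observed count of 0, the 1-sided upper 95% limit is about 3. At the genes listed at 0, a count of 3 would be a median TPM of 0.0824. This limit does not cover genes with near-identical copies, whose shared reads can be assigned to another copy. The number of reads behind the peaks is unknown.

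The labels were checked against marker genes. Of 12 fibroblast markers, 11 lay in the top quartile of TPM and 10 had a peak within 1 kb of the start, with Fap listed at 0. Among the other marker lists, 10 of 14 pluripotency genes, 4 of 10 leukocyte, 4 of 8 endothelial, 7 of 9 epithelial, 2 of 8 neuronal, 5 of 8 skeletal muscle and 4 of 8 hepatocyte genes were listed at TPM 0, and no gene of these 7 lists reached the third quartile. Tbx3 (TPM 7.46) among the pluripotency genes and 1 leukocyte gene had a start peak, and no gene of the other 5 lists did.

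The promoters of 6 genes show the range of starts the results turn on. They are RefSeq promoters of GRCm38.p6, 250 bases before to 50 after the start, read in the direction of the gene, with each CG in capitals. Stam2, an endosomal sorting gene, had the start peak of the highest fold. Eef2 (elongation factor 2) and Actg1 (gamma-actin) were among the most abundant mRNAs without a start peak although their promoters are rich in CG. S100a4, a calcium-binding protein of fibroblasts, had both a high TPM and a wide peak over a gene start with almost no CG. Its highest transcript starts further downstream, under the same peak. Il1rl1, the receptor of interleukin-33, had no peak at its annotated start and a strong one at another start. Olfr1, an odorant receptor, stands for the genes listed at 0 without a peak.
Stam2: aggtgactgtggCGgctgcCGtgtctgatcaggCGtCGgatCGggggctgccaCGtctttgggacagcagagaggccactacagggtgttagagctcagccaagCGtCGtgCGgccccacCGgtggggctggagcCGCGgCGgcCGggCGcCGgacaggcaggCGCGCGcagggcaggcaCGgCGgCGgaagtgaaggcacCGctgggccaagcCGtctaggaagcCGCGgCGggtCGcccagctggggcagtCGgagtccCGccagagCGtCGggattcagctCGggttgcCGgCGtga
Eef2: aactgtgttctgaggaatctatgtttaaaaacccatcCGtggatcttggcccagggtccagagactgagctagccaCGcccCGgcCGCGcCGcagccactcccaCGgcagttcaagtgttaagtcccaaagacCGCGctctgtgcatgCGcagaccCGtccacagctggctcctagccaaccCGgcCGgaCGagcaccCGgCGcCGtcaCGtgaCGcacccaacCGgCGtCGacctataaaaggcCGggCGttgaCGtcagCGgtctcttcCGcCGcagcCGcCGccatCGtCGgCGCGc
Actg1: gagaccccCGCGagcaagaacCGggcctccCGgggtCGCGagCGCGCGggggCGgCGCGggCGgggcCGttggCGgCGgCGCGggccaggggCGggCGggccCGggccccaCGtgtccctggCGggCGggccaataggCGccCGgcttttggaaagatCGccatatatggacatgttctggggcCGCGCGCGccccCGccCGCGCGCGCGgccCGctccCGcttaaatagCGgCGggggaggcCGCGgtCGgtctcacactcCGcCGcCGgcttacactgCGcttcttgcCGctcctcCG
S100a4: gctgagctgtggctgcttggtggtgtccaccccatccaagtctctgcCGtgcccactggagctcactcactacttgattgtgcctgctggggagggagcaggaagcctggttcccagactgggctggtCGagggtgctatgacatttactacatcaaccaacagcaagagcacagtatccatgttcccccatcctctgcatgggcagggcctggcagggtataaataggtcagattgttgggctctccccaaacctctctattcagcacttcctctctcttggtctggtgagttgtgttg
Il1rl1: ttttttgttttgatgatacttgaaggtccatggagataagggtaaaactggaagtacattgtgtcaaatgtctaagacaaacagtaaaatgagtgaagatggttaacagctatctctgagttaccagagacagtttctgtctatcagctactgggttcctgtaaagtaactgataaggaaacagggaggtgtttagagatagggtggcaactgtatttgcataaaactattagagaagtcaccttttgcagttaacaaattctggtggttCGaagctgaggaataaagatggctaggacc
Olfr1: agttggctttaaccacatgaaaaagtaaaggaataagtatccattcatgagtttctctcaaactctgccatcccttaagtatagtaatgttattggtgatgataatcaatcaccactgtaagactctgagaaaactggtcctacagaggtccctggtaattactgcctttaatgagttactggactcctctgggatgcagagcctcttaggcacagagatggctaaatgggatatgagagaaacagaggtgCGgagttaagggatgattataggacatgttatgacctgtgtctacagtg
The windows lie at chr2:52742100-52742399 (minus strand) for Stam2, chr10:81176381-81176680 (plus) for Eef2, chr11:120348446-120348745 (minus) for Actg1, chr3:90603520-90603819 (plus) for S100a4, chr1:40429320-40429619 (plus) for Il1rl1 and chr11:73399446-73399745 (minus) for Olfr1. They hold 35 CG in Stam2, 34 in Eef2 and 50 in Actg1, against 2 in S100a4, 1 in Il1rl1 and 1 in Olfr1.

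The NIH3T3 list held 34215 H3K27ac peaks on assembled chromosomes, whose median fold enrichment over the local background was 6.75 at a median width of 484 bps. Of these peaks, 13006 (38.0%) lay within 1 kb of a protein-coding gene start, and 21209 (62.0%) lay further away. Peaks at starts were stronger and wider, with a median fold of 11.0 and a median width of 710 bps, against 5.63 and 397 bps for the others. The distal peaks were split between gene bodies (12312) and the space outside them (8897), with nearly equal median folds of 5.57 and 5.66.

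The first question was how often a gene start carried the mark at each mRNA level. Over all genes, 9765 (44.6%) had a peak with at least 1 base within 1 kb of the start. The share was 2.42% (2.09 to 2.78) at TPM 0, 15.9% (14.7 to 17.2) in the lowest quartile, 75.1% (73.7 to 76.5) in the second, 89.2% (88.1 to 90.2) in the third and 92.0% (91.1 to 92.9) in the top quartile. The intervals of neighbouring classes do not overlap at any step. The step from the lowest to the second quartile was 59.2 percentage points, while the step from the third to the top quartile was 2.84.

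Finer groups of about 700 genes placed the change at low mRNA levels. The share was 4.40% (3.01 to 6.19) in the group with a median TPM of 0.0164, 18.9% at a median of 0.263 and 38.5% (34.9 to 42.2) at 0.667. It was 53.6% (49.9 to 57.4) at a median TPM of 1.46 and 81.8% (78.7 to 84.6) at 3.74. From a median TPM of 13.3 upwards, the 8 highest groups lay between 90.1% and 93.2% with overlapping intervals. The group of highest TPM, with a median of 207, was at 90.2% (87.7 to 92.3), so above this level a higher TPM did not go with more starts that carried a peak.

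**Figure D1:**
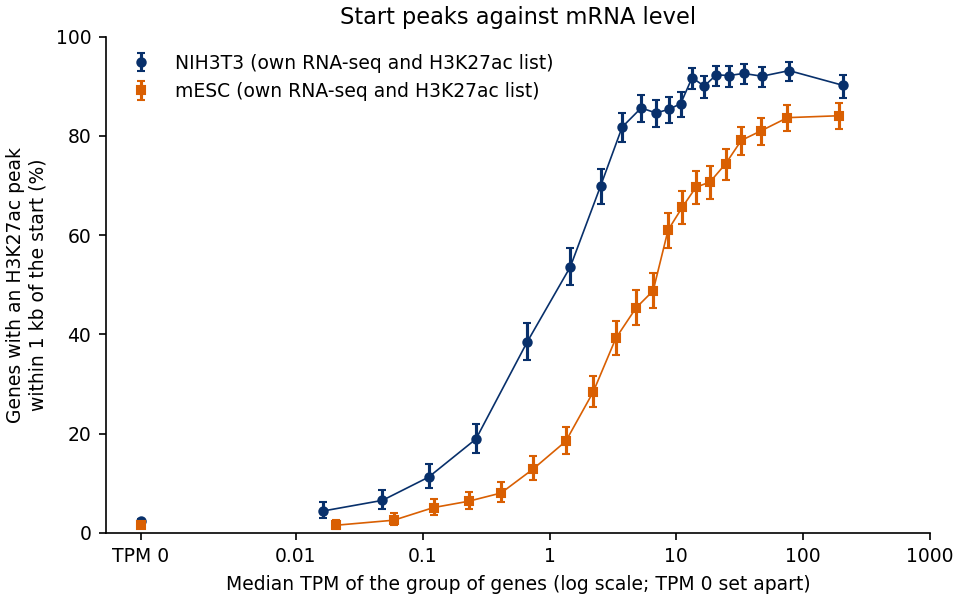
Share of protein-coding genes (%) with an H3K27ac peak within 1 kb of the start in 20 groups of equal size, against the median TPM of the group on a log scale, with genes at TPM 0 set apart, for NIH3T3 cells and for mESCs with their own libraries. Bars are 95% Clopper-Pearson intervals. The NIH3T3 share climbs from 4.40% to 81.8% between a median TPM of 0.0164 and 3.74 and then levels off near 92%.

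Genes that had a start peak were then compared by its strength. The median fold of the strongest start peak was 11.4 (quartiles 7.22 and 16.8) at TPM 0, 10.3 (6.11 and 17.1) in the lowest, 11.7 (7.68 and 17.6) in the second, 15.05 (10.2 and 21.6) in the third and 18.4 (12.3 and 25.3) in the top quartile. The median width was 694, 659, 751, 962 and 1157 bps in the same order. The interquartile ranges of all classes overlap in both measures. Peaks wider than 2 kb were found at 4.76% of the marked starts at TPM 0, at 3.75% in the lowest quartile and at 13.8% in the top quartile. At least 2 separate peaks lay within 1 kb of 32.3% of the marked starts at TPM 0 and of 50.3% in the top quartile.

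Across the 9576 genes with a start peak and a TPM above 0, Spearman's rho with TPM was 0.31 for fold and 0.31 for width. Within the top quartile it was 0.16 for fold and 0.17 for width, and within the lowest quartile it was -0.03 and -0.04. These are descriptions across genes of 1 library, which are not replicates and share neighbours and peaks. Seen from the peaks, the 1953 genes with the weakest start peaks (fold up to 8.48) had a median TPM of 6.35, with quartiles at 2.13 and 16.0. The 1953 genes with the strongest (fold of at least 24.0) had a median TPM of 22.1, with quartiles at 9.45 and 53.7.

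The extremes of fold and of TPM were different genes. The highest folds at starts were 59.6 at Stam2, 57.9 at Flcn (folliculin), 56.1 at Slc35b1 (a nucleotide sugar transporter) and 54.5 at the start shared by Aimp1 and Tbck. Their TPM was only 13.2, 7.86, 18.1, 83.5 and 6.74. The peak of Stam2 spanned chr2:52741425-52743130. By contrast Eef1a1 (elongation factor 1 alpha), at a TPM of 8791, had a start peak of fold 7.34 and 251 bps. Its highest transcript starts further inside the gene. Ptma (prothymosin alpha, TPM 3464) combined a high level with a fold of 48.1.

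The 5 genes with the widest start peaks included 3 homeobox genes. The widest was the 7429-bps peak at Fgf7, a growth factor secreted by fibroblasts (TPM 168, fold 14.3, chr2:126032618-126040046). It was followed by Prrx1, a homeobox gene of limb mesenchyme (7275 bps, fold 34.1, TPM 182), Hoxa2 (6741 bps, TPM 4.14), Tsc22d2 (5993 bps, TPM 23.4) and Meis1, a cofactor of Hox proteins (5909 bps, TPM 9.71). In mESCs, Fgf7, Prrx1, Hoxa2 and Meis1 had no H3K27ac peak at the start, and their TPM there was between 0.0613 and 1.11. The summit of the Hoxa2 peak stood at -4090 bps, upstream of the start.

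**Figure D2:**
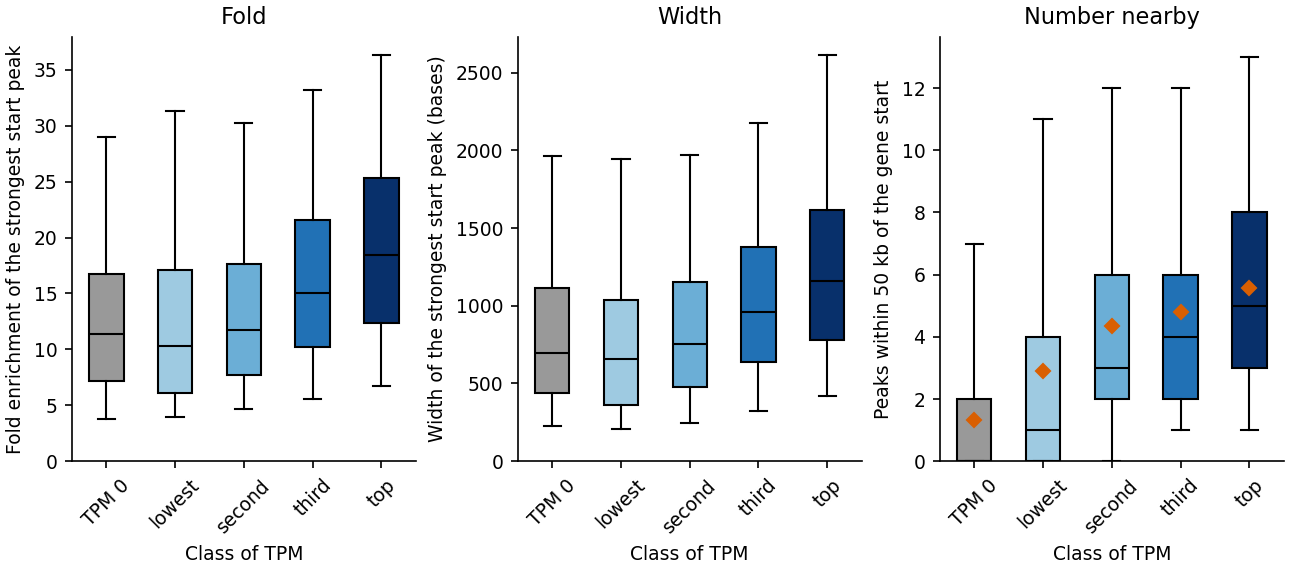
Fold enrichment and width (bases) of the strongest peak within 1 kb of the start, for genes that have one, and number of peaks within 50 kb of the start for all genes, by class of TPM in NIH3T3 cells. Boxes show the median and quartiles, whiskers the 5th and 95th percentiles and diamonds the mean; the median fold is 10.3 in the lowest and 18.4 in the top quartile.

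The position of the summit relative to the start was not used to choose anything. In the top quartile, 80.7% (79.3 to 82.0) of the strongest start peaks had their summit downstream of the start, with a median of 209 bps. At TPM 0 the share was 47.1% (39.8 to 54.5), and in the lowest quartile 56.3% (52.0 to 60.4). Of the genes with a start peak, 55.0% at TPM 0 and 41.6% in the lowest quartile had another gene start within 1 kb. In the top quartile this was 19.5%. A summit in the low classes can thus belong to the start of another gene, and its part in the difference was not tested. Counted in bins of 100 bps, the top quartile had 24.7 summits per 100 genes at 150 bps downstream, 12.9 at 350 bps upstream and 2.62 per bin directly around the start. The dip at the start was seen in all 4 quartiles and, on few summits, at TPM 0. There the density was 0.121 summits per 100 genes and bin around the start. It was 0.320 at 350 bps upstream and 0.383 at 250 bps downstream.

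The second measure was the number of peaks within 50 kb of the start, which counts start peaks and distal ones. At least 1 such peak was present for 69.0% of all genes. The mean number was 1.33 at TPM 0, 2.91 in the lowest, 4.36 in the second, 4.81 in the third and 5.58 in the top quartile, with medians of 0, 1, 3, 4 and 5. No peak lay within 50 kb of 64.2% of the genes at TPM 0, of 37.6% in the lowest quartile and of 1.65% in the top quartile. The classes had similar numbers of other gene starts in the same stretch, with a mean of 2.11 at TPM 0 and 2.27 in the top quartile. Counting only distal peaks, the mean was 0.619 at TPM 0, 1.34, 1.69 and 1.98 in the next classes and 2.47 in the top quartile.

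The excess over genes at TPM 0 was concentrated at the start and continued at a lower level out to 50 kb. In the top quartile the density of summits was 681 per Mb and gene in the first kb, 113 between 1 and 2 kb and 38.3 between 40 and 50 kb. At TPM 0 it was 14.6 in the first kb, 6.52 between 1 and 2 kb and 15.9 between 40 and 50 kb. Distal peaks were of nearly the same strength whatever the class of the nearest gene, whose start was a median of 29.1 kb away. Their median fold was 5.66 next to genes at TPM 0 and 5.63 next to top-quartile genes. Their number did differ, with 31.3% of distal peaks nearest to a top-quartile gene, a class that holds 16.1% of genes, and 11.9% nearest to a gene at TPM 0, a class that holds 35.7%.

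**Figure D3:**
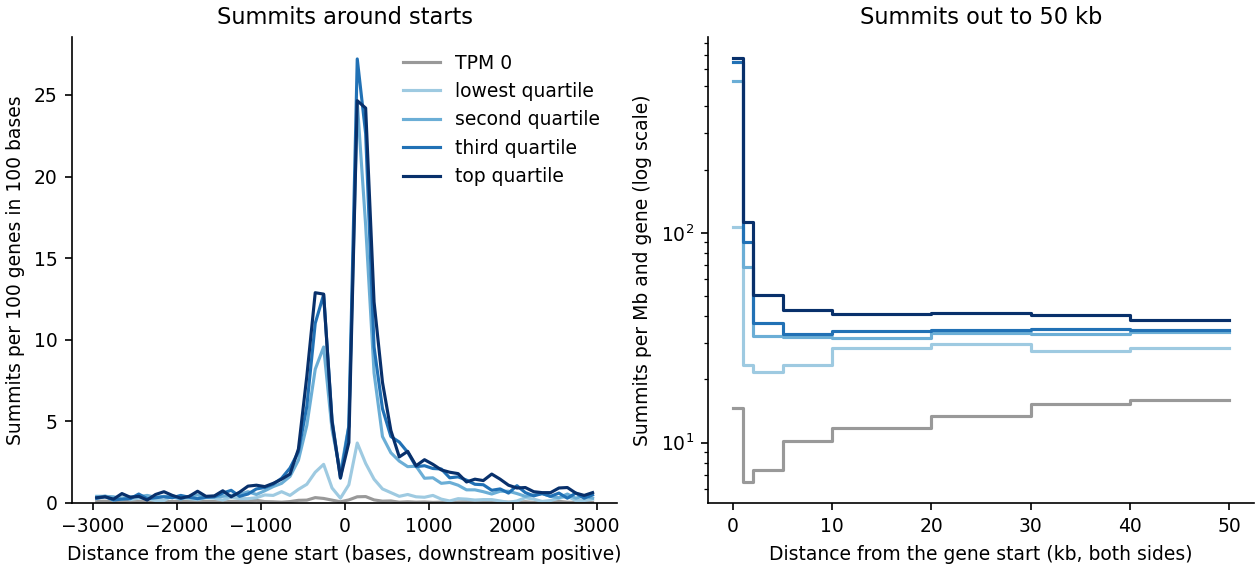
H3K27ac summits around gene starts by class of TPM in NIH3T3 cells, as summits per 100 genes in bins of 100 bases within 3 kb (downstream positive) and as summits per Mb and gene, on a log scale, out to 50 kb on both sides. Summits are few at the start itself, and the top quartile remains above TPM 0 out to the last step, with 38.3 against 15.9 per Mb and gene.

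The genes with the most peaks nearby were Socs3, an inhibitor of cytokine signalling (35 peaks within 50 kb, TPM 30.5), and 4 neighbours in the HoxA cluster. Hoxa4, Hoxa5, Hoxa6 and 5730596B20Rik each had 34 peaks within 50 kb, which are largely the same peaks, at a TPM of 2.61, 11.1, 4.71 and 0.027. Socs3 had no mESC peak at its start at a TPM of 59.2 in mESCs. Among the collagen genes that the study names, Col1a1 had 19 peaks within 50 kb and Col1a2 and Col5a1 had 10 each. At the start, Col1a1 (TPM 901) had 3 peaks, the strongest of fold 7.64 and 596 bps. Col1a2 (TPM 1082) had a peak of fold 17.9 and 2818 bps, and Col5a1 (TPM 94.5) one of fold 15.5 and 3841 bps. None of these 3 collagen genes had an mESC peak at the start, while the housekeeping gene Ppia (cyclophilin A) had peaks in both cell types, with a fold of 27.5 in NIH3T3 cells and 7.28 in mESCs at a TPM of 162 and 247.

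Gene groups with known roles were counted next. Their share with a start peak is to be read against 44.6% of all genes and against the share of their class of TPM. Of 27 fibroblast matrix genes, 25 lay in the top quartile and 24 had a start peak, among them Bgn (biglycan, TPM 1167, fold 5.79), Lox (lysyl oxidase, TPM 716, fold 24.4) and Serpinh1 (a collagen chaperone, TPM 504, fold 19.5). The exceptions were Sparc (TPM 766), Postn (periostin, TPM 14.8) and Lum (lumican, TPM 4.88). Sparc had a peak of fold 22.4 at another annotated start 3285 bps downstream, the peak nearest to Postn was 1839 bps away, and Lum had none within 50 kb.

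Of 22 actin and contractile genes, 18 had a start peak, with a median width of 1864 bps against 1157 bps in the top quartile as a whole. Actb (beta-actin, TPM 2120, fold 27.9), Vim (vimentin, TPM 1387, fold 23.5, 4705 bps), Tpm4 (tropomyosin 4, fold 27.4) and Myh9 (non-muscle myosin, fold 20.7) had one. Actg1 (TPM 1186), Flna (filamin A, TPM 135), Myl9 (TPM 5.15) and Cnn1 (calponin 1, TPM 4.67) had none at the gene start. Of these, only Flna had a peak at another annotated start, at 4 of its 15 starts. The YAP and serum response targets, which encode mainly signalling regulators and transcription factors, had a start peak at 25 of 27 genes. Of the 27, 17 lay in the top quartile, 5 in the third, 3 in the second and 2 in the lowest. The start shares of these classes were 92.0%, 89.2%, 75.1% and 15.9%. The start peaks of the 25 genes had a median width of 1981 bps, and 12 were wider than 2 kb. Fosl1 (TPM 106, 3350 bps), Fosl2 (TPM 74.6, 3964 bps) and Junb (TPM 82.9, 3029 bps), subunits of AP-1, were among them. Atf3 (TPM 0.552) and Lats2 (TPM 13.3) had no peak at the gene start and had one at another annotated start.

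Of 25 mesenchymal transcription factors 19 had a start peak, including Prrx1, Twist2 (TPM 59.3, fold 18.8), Osr1 (TPM 80.0, fold 5.21) and Snai1 (TPM 80.0, fold 6.67). Of the 6 without, Tcf21, Scx, Msx1 and Meox2 were listed at TPM 0 and Meox1 was at 0.178. Runx1 (TPM 11.5) had its nearest peak 1151 bps from the gene start and a peak at 5 of its 7 annotated starts. The genes that write, erase or read the mark had a start peak in 18 of 19 cases, among them Brd2 (TPM 128, fold 38.3) and Hdac2 (TPM 176, fold 26.9). Brd3 (TPM 22.1) had its peak only at other annotated starts. Of 83 cytosolic ribosomal protein genes 77 had a start peak, with a median fold of 22.8, and of 39 proteasome subunits 32 had one, with a median fold of 21.2. In glycolysis the count was 12 of 17. Gapdh, Pkm and Eno1 had a start peak, Ldha, Hk1, Pfkl, Pfkp and Aldoc had none at the gene start, and Aldoc was listed at TPM 0. Of these 5, Ldha and Hk1 had a peak at another annotated start.

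In other groups the share with a start peak was far from that of the top quartile, a class to which few or none of their genes belonged. Of 66 replication-dependent histone genes, whose mRNAs end without a poly(A) tail, 43 lay in the lowest quartile or at TPM 0 and 39 (59.1%, 46.3 to 71.0) had a start peak. Hist1h1c (TPM 5.83, fold 18.6, 2583 bps) is an example. Histone genes lie in dense clusters and have near-identical copies, so both their counts and their peaks can be shared, and how the RNA was selected is not given in the sources used here. Of 39 Hox genes, 12 were listed at TPM 0. A further 14 lay in the lowest quartile, 9 in the second, 4 in the third and none in the top quartile. Over all genes, the start shares from TPM 0 to the third quartile were 2.42%, 15.9%, 75.1% and 89.2%. A start peak was found at 13 of the Hox genes (33.3%), 7 of them in the HoxA cluster, with a median fold of 16.5. At the other end, 1066 of 1462 odorant and vomeronasal receptor genes and 98 of 110 keratin and keratin-associated genes were listed at TPM 0. A start peak was found at 5 of the receptor genes (0.342%, 0.111 to 0.796) and at 4 of the keratin and keratin-associated genes. Krt80 (TPM 5.37, fold 24.2, 3035 bps) was the strongest of these.

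The exceptions at the top came next. Of the 3517 top-quartile genes, 280 (7.96%, 7.09 to 8.91) had no peak within 1 kb of the gene start. Their median TPM was 47.6, against 47.3 for the 3237 genes with one, and 78 of the 809 genes with a TPM of at least 100 were among them (9.64%). For 165 of the 280 (58.9%), a peak lay at another annotated transcript start of the same gene. A further 19 had no such peak and a highest transcript with 1 exon, and 96 had no such peak and several exons. A peak at another annotated start was about as frequent among the 380 third-quartile genes without a start peak (217, 57.1%). Among genes without a start peak in the lower classes, it was found for 27.2% in the second quartile, 3.41% in the lowest and 0.458% at TPM 0.

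In the group of 165, the gene start in the annotation was not where the mark was. Fth1 (ferritin heavy chain, TPM 2691) missed by little, with the nearest peak 1003 bps from the gene start and a peak of fold 19.6 at another start. Rpl3 (TPM 1279) had its peak of fold 37.9 at a start 11387 bps downstream. Il1rl1 (TPM 1055) had a peak of fold 21.2 and 6483 bps at a start 10057 bps downstream, close to the start of its highest transcript. Ldha (TPM 708) had a peak of fold 31.6 at 4364 bps, Cd63 one of 2482 bps in width at 7831 bps and Gnas one of fold 17.1 at 43250 bps. Over all 280 genes, the highest transcript started elsewhere than the gene for 67.1%, against 36.9% of the top-quartile genes with a start peak.

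The 19 single-exon genes included Gm11361 (TPM 2049), Gm10260 (TPM 2030) and Gm2000 (TPM 1427), with the nearest peak 40.5, 82.1 and 54.6 kb away. Highest transcripts with 1 exon made up 6.79% (4.13 to 10.4) of the 280 genes and 1.24% (0.884 to 1.68) of the top-quartile genes with a start peak. The group also held Rps12-ps3 (TPM 929), Rpl27-ps3 and Pcna-ps2, whose symbols mark them as pseudogenes, and the histone genes H2afx and Hist1h2ap. Reads shared with other genes were not tested.

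The 96 remaining genes had several exons and no peak at any annotated start. Eef2 (TPM 2475) had its nearest peak 8906 bps away, Prl2c2 (proliferin, TPM 2121) 162 kb, Actg1 29.5 kb, Prl2c3 (TPM 524) 149 kb, Snrpe (a spliceosome protein, TPM 456) 50.2 kb, Serf2 (TPM 326) 34.6 kb and P4hb (protein disulfide isomerase, TPM 322) 80.8 kb. Prl2c2 and Prl2c3 are near-identical copies, so reads in both assays can be shared between them. Several of these genes were neighbours. A stretch of 180 kb at chr11:120492756-120672573 held 14 protein-coding gene starts, 6 of them in the top quartile, among them P4hb, Arhgdia, Mcrip1, Anapc11 and Alyref, and no peak of the NIH3T3 H3K27ac, mESC H3K27ac or NIH3T3 Ctr9 lists. A stretch of 103 kb at chr9:44305690-44408329 was free of peaks of the same lists and held 9 gene starts, 4 of them in the top quartile. Among these, Hyou1 belongs to the 96 genes, while H2afx is one of the single-exon genes and Rps25 had a weak peak, of fold 3.78, at another annotated start.

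Start peaks were also few at these genes in the other cell type. Of the 96, 64 were in the top quartile of mESCs, and 4 of the 64 (6.25%, 1.73 to 15.2) had an mESC H3K27ac peak at the start. The share was similarly low in the other groups of exceptions, with 9 of 116 (7.76%) for the genes with a peak at another start and 0 of 14 for the single-exon genes. Of the top-quartile genes with an NIH3T3 start peak, 2424 were in the top quartile of mESCs and 2175 of these (89.7%, 88.5 to 90.9) had an mESC start peak. A Ctr9 peak lay at the start of none of the 96 genes, of 39.8% of the top-quartile genes with an H3K27ac start peak, and of 12.6% of all genes. It was also rare in the other exceptions, at 2 of the 165 genes with a peak at another start and 1 of the 19 single-exon genes. In the gene body, a Ctr9 peak was found for 14 of the 96 (14.6%) and 87 of the 165 (52.7%). The body share was 56.5% for the top-quartile genes with an H3K27ac start peak. The authors removed reads in blacklisted regions before calling peaks, and whether these stretches lie in such regions was not tested.

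**Figure D4:**
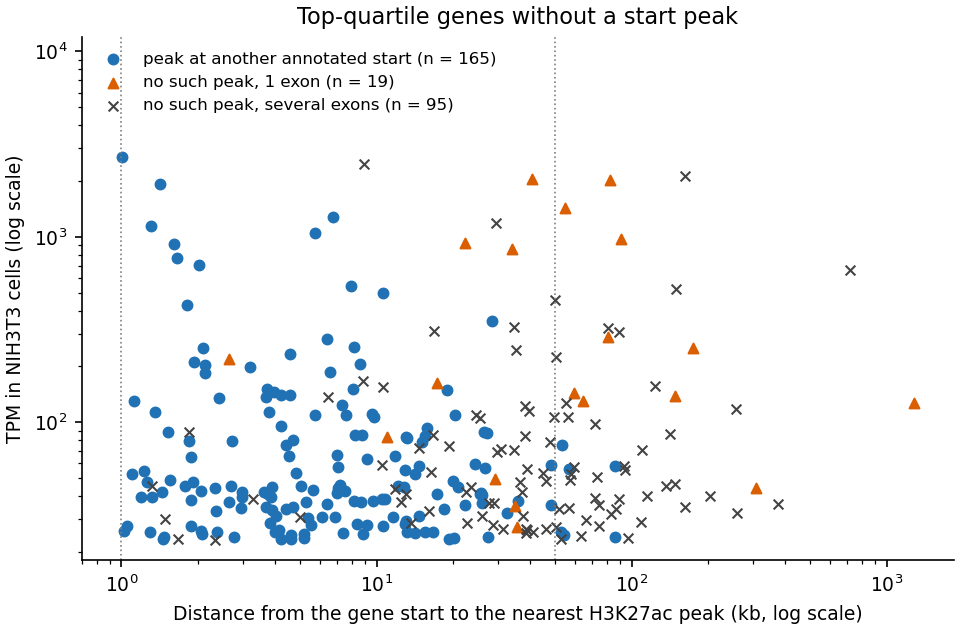
TPM against the distance from the gene start to the nearest H3K27ac peak in NIH3T3 cells, both on log scales, for the top-quartile genes without a peak within 1 kb. Dotted lines mark 1 and 50 kb, and 1 gene on a chromosome without a peak is not drawn; genes with a peak at another annotated start lie mostly within 10 kb, while single-exon genes and the rest reach beyond 50 kb.

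The exceptions at the bottom were 189 genes listed at TPM 0 that had a start peak. For 115 of them (60.8%, 53.5 to 67.8), a protein-coding transcript of another gene with a TPM above 0 started within 1 kb, which held for 0.982% (0.774 to 1.23) of the 7634 genes at TPM 0 without a start peak. The median TPM of these neighbours was 12.2, and 34 of them would fall in the top quartile. Epo (erythropoietin) led this group, with a peak of fold 42.1 at chr5:137532851-137533687 that it shared with Gnb2 (a G-protein subunit, TPM 51.0). Gm48551 shared its peak of fold 41.8 with Dohh (TPM 27.5), Gm37419 its peak of fold 39.5 with Bcl6 (TPM 7.91), 1810049J17Rik its peak of fold 38.2 with Golph3 (TPM 43.1) and Gm9970 its peak of fold 29.2 with Nrbp1 (TPM 48.9).

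A further 6 of the 189 had only a non-coding transcript of another gene nearby and 18 had another transcript of the same gene above 0. The other 50 had none of these. They included Gsg1 (fold 40.4, 4416 bps), Hist1h3h (fold 16.8), Esrp2, a splicing regulator of epithelial cells (fold 15.4), and Scrt1 (fold 14.6). The peak of Hist1h3h is also the start peak of Hist1h2ai (TPM 5.85), which starts just beyond the 1 kb limit. The peaks of these 50 genes were weaker, with a median fold of 7.79 and a median width of 503 bps, against 14.2 and 849 bps for the 115. An mESC start peak was present at 84 of the 115 and at 11 of the 50. Over all 189 genes it was present at 56.1% (48.7 to 63.3), against 2.03% (1.73 to 2.37) of the genes at TPM 0 without a start peak and 32.2% of all genes.

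The sequence around the start was then set beside both readouts. The CpG ratio is the number of CG in 1000 bases centred on the gene start over the number expected from C and G. Its median was 0.221 at TPM 0 and 0.769 in the top quartile. Within each class it was higher at starts with a peak, with 0.664 against 0.217 at TPM 0 and 0.781 against 0.317 in the top quartile. At a ratio of at least 0.6, a start peak was found for 9.26% (7.69 to 11.0) of the genes at TPM 0, 33.0% (30.1 to 35.9) of the lowest, 87.3% (85.8 to 88.6) of the second, 95.5% (94.7 to 96.3) of the third and 97.1% (96.4 to 97.7) of the top quartile. At a ratio under 0.3 the shares were 0.554%, 4.73%, 26.7%, 32.9% and 42.8%. The order of the classes was thus the same among CG-rich and CG-poor starts, and a CG-rich start by itself was mostly without a peak at TPM 0.

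For the top quartile, the deficit at CG-poor gene starts went with other starts of the same genes. Of 229 top-quartile genes with a ratio under 0.3, 98 had a peak at the gene start and 213 (93.0%, 88.9 to 96.0) at any annotated start. The pattern was not limited to this class. At the same ratio the share rose from 32.9% to 83.1% in the third quartile and from 26.7% to 54.1% in the second. Among the 280 top-quartile exceptions, the median ratio was 0.241 in the group with a peak at another start, 0.520 in the single-exon group and 0.698 in the remaining group, of which 65 of 95 had a ratio of at least 0.6. Eef2 and Actg1, whose CG-rich promoters are printed above, belong to the last group. S100a4, with a ratio of 0.180, is the opposite case, a CG-poor gene start under a peak of fold 19.9 and 3343 bps. Its TPM was 3337, against 0.737 in mESCs with no start peak there. The highest transcript of S100a4 starts further downstream, at chr3:90604911 under the same peak, where the ratio was not computed.

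**Figure D5:**
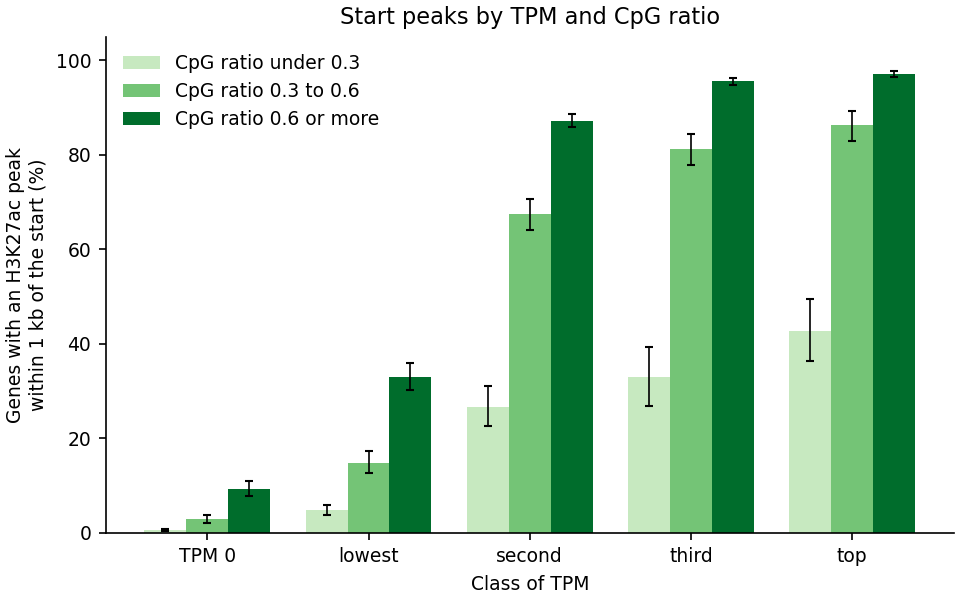
Share of protein-coding genes (%) with an H3K27ac peak within 1 kb of the gene start in NIH3T3 cells, by class of TPM and by CpG ratio in 1000 bases around the start, with 95% Clopper-Pearson intervals. In the top quartile the share is 42.8%, 86.4% and 97.1% from the lowest to the highest ratio, and at TPM 0 it is 0.554%, 2.84% and 9.26%.

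RefSeq promoters of 300 bases were matched to 14245 of the 21892 genes (65.1%), too few for a comparison of promoter motifs between classes, which is void and not given. Around peak summits 1 motif was searched. TGANTCA, the letters of an AP-1 site, which reads the same on both strands, was present within 150 bases of 9.90% (9.50 to 10.3) of distal summits and of 3.74% (3.42 to 4.09) of summits at starts. Windows of the same length 2 kb to one side held it in 9.21% and 8.62% of cases. Near distal summits it was thus about as frequent as beside them, and with 100 bases on each side it was less frequent at the summits (5.21%) than beside them (6.24%). The mark lies on nucleosomes that flank active promoters and enhancers, so a window at a summit can leave out the sites between them. Other parts of the peaks were not searched. A match of letters is no evidence of binding.

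In mESCs, the start share and the number of peaks within 50 kb gave the same order of classes at lower levels. The start share was 1.60%, 4.71%, 28.9%, 63.2% and 80.5% from TPM 0 to the top quartile of mESC TPM, and the mean number of peaks within 50 kb was 0.607, 1.11, 2.04, 2.62 and 3.44. The mESC list was shorter, with 19305 peaks and a median fold of 3.98. With the same number of peaks taken by q-value from the NIH3T3 list, its shares were 1.93%, 11.9%, 64.1%, 83.9% and 89.3%. The median fold in mESCs was 4.95 at TPM 0, 5.15 in the lowest, 4.98 in the second and 5.93 in the top quartile. The 95% intervals of the first 3 medians, taken from ranked values, overlap (4.52 to 5.47, 4.74 to 5.90 and 4.83 to 5.17). In NIH3T3 cells those of TPM 0 and the lowest quartile overlap too (10.0 to 12.8 and 9.39 to 11.0), so the order of these low classes is not compared. With 1 library of each kind the differences between the cell types cannot be told apart from differences in depth or enrichment between the libraries.

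Genes with a high TPM in only 1 of the cell types carried the mark more often in that cell type. Of 178 genes in the NIH3T3 top quartile with a TPM under 1 in mESCs, 152 (85.4%, 79.3 to 90.2) had a start peak in NIH3T3 cells and 2 (1.12%) in mESCs. Of 185 genes in the mESC top quartile with a TPM under 1 in NIH3T3 cells, 10 (5.41%, 2.62 to 9.72) had a start peak in NIH3T3 cells and 79 (42.7%, 35.5 to 50.2) in mESCs. The NIH3T3-high genes had a mean of 6.95 peaks within 50 kb in NIH3T3 cells, against 5.38 for the 2618 genes in the top quartile of both. Their start peaks had a median fold of 11.6 and a median width of 1257 bps, against 19.3 and 1144 bps for the genes in the top quartile of both.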

How the data were processed

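One H3K27ac ChIP-seq and 1 RNA-seq library of NIH3T3 cells were analysed, with the matching mESC libraries and the NIH3T3 Ctr9 list for comparison. Per the labels and the methods, ChIP-seq reads were aligned by the authors with Bowtie2 2.3.5.1 against mm10, reads falling in ENCODE blacklisted regions were discarded, and MACS2 2.2.6 called peaks for each library with 0.01 as the q-value limit. In the deposited lists, fold enrichment is a ratio, the summit pileup over the local background. The deposited −log10 p-value and −log10 q-value belong to the summit, and the authors' score derives from the q-value. Transcripts were quantified by the authors with kallisto 0.46.1 against GENCODE M19, and the deposited tables give estimated counts and TPM for each transcript, with no filter stated.

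Genes were those with a protein-coding transcript in the tables (21923), 21905 of which had coordinates in GENCODE M21 for GRCm38, and the 13 mitochondrial genes were left out. The start is the 5′ end of the gene in that annotation. A peak was counted when at least 1 base lay within the stated distance, and the strongest peak is the one with the highest fold. A distal peak lay over 1 kb from every protein-coding gene start. Quantiles, Clopper-Pearson intervals and correlations (log2(TPM + 1) for Pearson's r) were computed in Python 3.11.15 using SciPy 1.17.1, NumPy 2.4.6 and pandas 2.3.3. Matplotlib 3.10.9 drew the figures. No test was made, since each kind has 1 library, and the depth of the ChIP-seq libraries is unknown. Overlap, distance, class and interval code was tested on simulated data with 400 genes and 600 peaks, and 10 of 10 checks passed.

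The members, gene lists and measures were chosen with earlier results of these data known. Named genes are the 10 of highest TPM with and without a start peak (ribosomal-protein genes left out of the former), the 10 at TPM 0 with the highest fold, the 5 with the most peaks within 50 kb, the highest fold or the widest start peak, the genes the study names for these cells, and up to 6 members of each list by TPM with those that go against its majority. The further top-quartile exceptions, the genes at TPM 0 without an expressed neighbour, the neighbours of genes at TPM 0 and single list members outside this rule were named after their values were seen. Alternatives changed the distance, the summit or q-value rule, the start, the TPM measure and floor, the summary and the genes left out. Some genes within this rule are not reported here.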

Additional observations from a re-analysis of the deposited data

How the results depend on the processing

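Of the differences between classes or cell types and the correlations that were re-run, none changed sign under an alternative. The class differences re-run were those of the top quartile from TPM 0 or from the lowest quartile. The only difference between cell types re-run was that in the top-quartile start share. Correlations were re-run over all genes with a start peak and a TPM above 0. Gene lists, summit positions and correlations within quartiles were not re-run. No paired analysis was possible because each kind of library was made once. The start share of the top quartile exceeded that at TPM 0 by 89.6 percentage points, and by 88.2 with the summit within 1 kb, 91.2 at the start of the highest transcript and, chosen after seeing the data, 93.9 at any annotated start and 87.8 among starts with a CpG ratio of at least 0.6. The difference in mean peaks within 50 kb was 4.25, and 3.90 at a −log10 q of at least 5, 2.73 within 20 kb, 6.37 within 100 kb, 1.85 for distal peaks only, 5 for medians and 3.83 among CpG-rich starts. The fold difference was 8.09 for medians and 6.72 for means, and the width difference was 498 bps, and 422.5 bps among CpG-rich starts. Top-quartile genes without a start peak numbered 280, and 115 when any annotated start counted. Genes at TPM 0 with one numbered 189, 293 with a TPM floor of 0.1, and 72 without genes that share a start within 2 kb. Pearson's r with TPM was 0.32 for fold and 0.32 for width, and 0.30 and 0.30 at a TPM of at least 1. The top-quartile share was 11.6 points above that of mESCs, and 8.85 with equal numbers of peaks. The share of distal summits with TGANTCA was 9.90%, and 5.21% with 100 bases on each side, a shorter window, where it fell below the share in the flanking windows (6.24%) instead of above it (9.21%). The CpG ratio of the top quartile exceeded that at TPM 0 by 0.548, and by 0.579 in the 300 promoter bases of the 65.1% of genes matched, under the 80% such a check needs and so void. Where no construction is named, the cause was not tested. Depth limits what the list can show, since an absent peak is not an absent mark.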
